A study of Mus musculus with 24 samples.

Results

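The genes described here build and run the mitotic spindle, attach chromosomes to it at the kinetochore, and divide the cell by cytokinesis. They were taken from a list of 55 gene symbols, and a gene was measured where a probe set of the array carries that symbol and no other. That held for 54 of the 55, each with 1 such probe set, out of 22180 genes with a single symbol in the series. All 54 passed the filter on low values and stood among the 15234 genes tested. Ncapg, a condensin subunit gene, shares its probe set with other symbols and was not analysed here.

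Mitosis begins when kinases such as PLK1 and the Aurora kinases mature the centrosomes and the chromosomes condense. Microtubules then attach to kinetochores, and a checkpoint of MAD and BUB proteins holds back the anaphase-promoting complex (APC/C), a ubiquitin ligase, until every kinetochore is attached. CDC20 then activates the APC/C, securin is destroyed, separase opens the cohesin rings, and a contractile ring divides the cell. Transcripts of most of these proteins are made in G2 and M phase, so in a tissue they mark cycling cells, and the mammary epithelium is known to proliferate strongly in pregnancy.

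Mouse RNA was measured on 24 single-colour expression arrays, 12 wild type and 12 of the genotype labelled Mutant, in a series about BRCA1 in pregnancy. Each genotype had 3 arrays at each of 4 stage codes, V (virgin in the titles), dp12, dp18 and Lac10, and all mice shared a strain mixture of 80% FVB, 10% 129SVEV and 10% Black Swiss. The labels give neither the allele, its promoter or Cre driver, the age nor the tissue, and the design text gives the numbers of the codes as months, so the codes are printed as they stand. Most dp18 and Lac10 titles also carry a colour word, whose meaning they do not give. It read white, brown and brown at wild-type Lac10, white, golden and white at mutant Lac10, and white and brown at wild-type dp18. Whether mice differed in background within the shared mixture was not tested. The titles give every mutant array a number of its own and 22 of the 24 arrays a body weight, most of them different within a group, as separate animals would have. No label says outright that each array holds a separate animal, and the p-values below measure the spread between arrays. Values are log2 levels after robust multi-array averaging (RMA). Differences are log2 differences with the standard error (SE) of a limma fit over all 24 arrays, and a gene "rose" or "fell" where its adjusted p was under 0.05 over all 15234 genes.

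The arrays were not equally alike. An array's correlation with the others had a median of 0.799 for mutant Lac10 replicate 2, 0.837 for wild-type dp18 replicate 1 and 0.863 for mutant dp18 replicate 1, and 0.91 to 0.968 for the rest. The casein gene Csn1s2b lay at 6.47 on the array labelled wild-type Lac10 replicate 1 against 11.47 and 11.24 on the other arrays of that group, and at 10.37 on the array labelled mutant dp18 replicate 2 against 6.30 and 5.93. Mutant Lac10 replicate 1 was also lower than its companions, at 8.19 against 10.43 and 11.32. Whether arrays were exchanged was not tested, and the dp18 and Lac10 values below follow the labels. The median level of 14 luminal epithelium genes was between 6.53 and 9.95 on every array, above the array medians of 5.31 to 5.62, and that of 20 housekeeping genes ran from 7.98 to 9.31. In bulk RNA, fewer cells of a type and less RNA per cell cannot be told apart.

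All 54 members had their highest stage mean at dp12, in wild type and in mutants alike. The lowest was at V for 51 members in wild type and 48 in mutants, and at Lac10 for the others. Over the 8 groups the highest mean was in mutant dp12 for 40 members and in wild-type dp12 for 14. The members also moved together from array to array. The correlation of a member with the mean of the other members over the 24 arrays had a median of 0.966, and 45 of 54 lay above 0.9. Kif11 was closest to the rest at 0.996, followed by Kif20a at 0.990 and Racgap1 at 0.989, while Bub3 at 0.516 and Cenpk at 0.731 were least like them. The arrays share the 8 groups, and after subtraction of the group means the median correlation was 0.887, which is a description and no test.

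**Figure D1:**
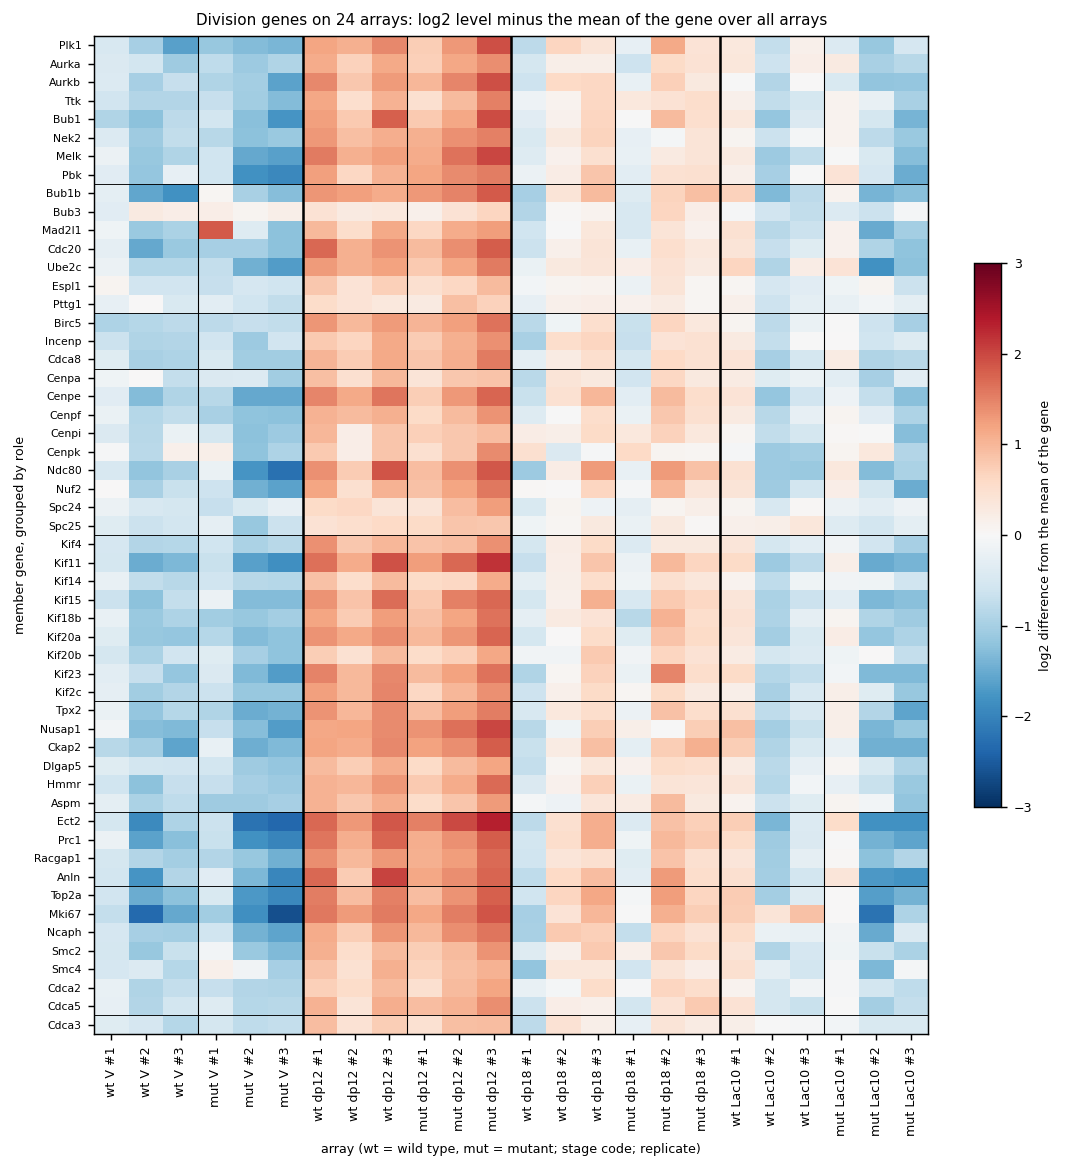
Each row is one of the 54 division genes, grouped by role, and each column an array; colour gives the log2 level minus the mean of the gene over all arrays, red above and blue below. The 6 dp12 arrays are red in nearly every row, the virgin arrays mostly blue, and Bub3 stays pale throughout.

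The step from V to dp12 asks how the division genes differ between virgins and the first stage code after them in each genotype. In wild type 48 of 54 members rose and none fell, where 5.91% of all genes tested rose. In mutants 51 of 54 rose, where 3.02% of all genes rose. The median difference of the members was 1.82 in wild type and 2.20 in mutants, against 0.28 and 0.01 for all genes. Among the largest rises over all genes, the top 1% held 30 members in wild type and 41 in mutants. The arrays of the 2 stages did not overlap for 53 members in wild type, where this held with a rise for 41.7% of all genes, and for 52 in mutants, where it held for 22.1%.

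The wild-type count rested on few arrays. It was 0 without virgin replicate 2, 4 without virgin replicate 3, 0 without dp12 replicate 1 and 27 without dp12 replicate 3, while the calls over all genes were 0, 18, 4 and 273 and the members' median stayed between 1.71 and 2.00 over all arrays left out in turn. Centring each array on its housekeeping genes left 18 wild-type calls and a median of 1.31, with the median of all genes moved from 0.28 to -0.23. In mutants the count was between 45 and 52 whichever array was left out. For the centred fit and the mutant fits the share of all genes is not given here, so those counts stand without a background.

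Of a pair of values for 1 gene below, the first is the wild type and the second the mutant. Among the 8 mitotic kinases all rose in both genotypes, by 1.54 to 2.26 in wild type and by 1.99 to 2.83 in mutants. Plk1, which drives mitotic entry, centrosome maturation and cytokinesis, lay at 6.81, 6.30 and 5.66 in wild-type virgins and at 8.46, 8.36 and 8.73 at dp12. In mutants it lay at 6.14, 6.00 and 5.91 and at 8.03, 8.58 and 9.21. The stages did not overlap, and the wild-type rise of Plk1 was 2.26 (SE 0.40, adjusted p = 0.00924) and its mutant rise 2.59 (SE 0.40, adjusted p = 0.00071) by limma.

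Aurkb, the kinase of the chromosomal passenger complex, which corrects faulty attachments, lay at 6.48, 5.89 and 6.18 in wild-type virgins and at 8.31, 7.69 and 8.16 at dp12. In mutants its levels were 5.98, 5.87 and 5.27 and then 7.87, 8.35 and 8.81. Its rise was 1.87 in wild type and 2.64 in mutants. Aurka, which matures centrosomes, rose by 1.67 and 2.01, and Ttk, which starts the checkpoint signal, by 1.67 and 1.99. Bub1, a checkpoint kinase at the kinetochore, rose by 2.24 and 2.48, and Nek2, which separates centrosomes, by 1.84 and 2.36. Melk and Pbk, kinases of dividing cells, rose by 2.02 and 1.54 in wild type, with mutant rises of 2.83 and 2.82. The partners of Aurora B rose too, namely Birc5 (survivin) by 2.04 and 2.03, the scaffold gene Incenp by 1.67 and 1.81, and Cdca8 (borealin) by 1.72 and 2.00.

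Of the checkpoint and APC/C genes 4 of 7 rose in wild type and 5 of 7 in mutants, the lowest share among the roles in each. Cdc20, the activator of the APC/C, lay at 6.33, 5.07 and 5.48 in wild-type virgins and at 8.33, 7.67 and 7.95 at dp12. The mutant levels were 5.61, 5.61 and 5.36 and then 7.55, 7.99 and 8.42. It rose by 2.36 (SE 0.38, adjusted p = 0.00924) and by 2.46 (SE 0.38, adjusted p = 0.000702) by limma. Ube2c, the ubiquitin-conjugating enzyme of the APC/C, lay at 6.83, 6.15 and 6.16 in wild-type virgins against 8.29, 8.09 and 8.21 at dp12, and in mutants at 6.30, 5.57 and 5.33 against 7.80, 8.18 and 8.56. It rose by 1.81 and 2.45. Bub1b (BubR1), a subunit of the mitotic checkpoint complex, rose by 2.44 and 2.27.

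Bub3, the partner that brings BUB1 and BubR1 to kinetochores, moved least of the 54. It lay at 8.45, 9.06 and 8.98 in wild-type virgins and at 9.22, 9.05 and 9.10 at dp12, and in mutants at 8.98, 8.86 and 8.97 and at 8.93, 9.21 and 9.44. These levels overlapped, with differences of 0.30 (SE 0.29, adjusted p = 0.467) and 0.25 (SE 0.29, adjusted p = 0.834) by limma. Mad2l1, which encodes the MAD2 protein that inhibits CDC20, lay at 6.83, 5.83 and 6.01 and then at 7.93, 7.49 and 8.10 in wild type, a difference of 1.62 (adjusted p = 0.0758) by limma with no overlap. Mutant arrays gave 8.80, 6.58 and 5.74 in virgins and then 7.58, 8.07 and 8.21 at dp12. The value of 8.80, on mutant virgin replicate 1, was above every dp12 array, and the mutant difference was 0.92 (adjusted p = 0.513) by limma.

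Espl1 encodes separase, the protease that opens cohesin, and Pttg1 encodes securin, its inhibitor. Espl1 lay at 6.19, 5.53 and 5.54 in wild-type virgins and at 6.91, 6.52 and 6.82 at dp12, and in mutants at 5.41, 5.62 and 5.53 and at 6.59, 6.74 and 7.06. It rose by 1.00 in wild type and by 1.27 in mutants. Pttg1 lay at 5.94, 6.20 and 5.72 and then at 6.73, 6.60 and 6.50 in wild type, which did not overlap and gave 0.65 (adjusted p = 0.065) by limma. On mutant arrays it stood at 5.87, 5.58 and 5.44 and at 6.45, 7.09 and 6.87, and rose by 1.17 (adjusted p = 0.00229) by limma. The difference between the genotypes in this step was 0.52 for Pttg1 (adjusted p = 0.695, limma) and did not pass.

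At the centromere and kinetochore 7 of 9 members rose in wild type and 9 of 9 in mutants. The 4 subunits of the NDC80 complex, which grips microtubule ends, all rose. Ndc80 lay at 6.09, 5.40 and 5.59 in wild-type virgins and at 7.95, 7.33 and 8.45 at dp12, and in mutants at 6.36, 4.80 and 4.33 and at 7.49, 7.93 and 8.44, which made rises of 2.22 and 2.79. Nuf2 rose by 1.44 and 2.43, and Spc25 by 1.03 and 1.42. Spc24 lay at 5.92, 5.62 and 5.57 in wild-type virgins and at 6.66, 6.72 and 6.47 at dp12, and in mutants at 5.40, 5.63 and 5.84 and at 6.48, 7.01 and 7.34, which made rises of 0.92 and 1.32. Cenpe, a kinesin of the kinetochore, rose by 2.25 and 2.56, Cenpf by 1.61 and 2.08, and Cenpi, of the inner kinetochore network, by 1.17 and 1.77.

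The others of this role passed in mutants and not in wild type. Cenpa, the histone H3 variant that marks the centromere, lay at 6.98, 7.11 and 6.39 in wild-type virgins and at 8.00, 7.59 and 8.07 at dp12, a difference of 1.06 (adjusted p = 0.0603) by limma, and rose by 1.32 in mutants. Cenpk, another subunit of the inner network and the dimmest of the members named here, lay at 4.74, 3.97 and 4.93 and then at 5.57, 4.98 and 5.62 in wild type, a difference of 0.84 (adjusted p = 0.154) by limma. In mutants Cenpk lay at 4.96, 3.57 and 3.84 and at 5.25, 5.58 and 6.20, and rose by 1.56 (adjusted p = 0.0291) by limma. Cenpk exceeded the array median on 4 arrays, all of them dp12, so it entered the tests only through the stage where it was high. Its mutant call, counted among the 51 above, is therefore no independent sign of a rise. No genotype difference in this step passed for Cenpa or Cenpk.

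All 9 kinesins and all 6 spindle assembly genes rose in both genotypes. Kif11, the motor that pushes the spindle poles apart, lay at 6.13, 5.18 and 5.31 in wild-type virgins and at 8.31, 7.77 and 8.58 at dp12. In mutants it lay at 5.99, 5.02 and 4.81 and at 7.91, 8.38 and 8.82. The stages were apart by more than 1 unit at their nearest arrays, and Kif11 rose by 2.68 (SE 0.51, adjusted p = 0.0112) and 3.10 (SE 0.51, adjusted p = 0.00099) by limma. Kif15, a motor that can share this work, rose by 2.15 and 2.27. The central spindle motor genes Kif20a and Kif23 rose by 2.18 and 2.03 in wild type, with mutant rises of 2.47 and 2.40, and Kif2c and Kif18b, which encode motors that shorten microtubules, by 1.96 and 1.82, with mutant rises of 1.96 and 2.30. The chromosome motor gene Kif4 rose by 1.79 and 1.84, and Kif14 and Kif20b, needed late in division, by 1.38 and 1.39 in wild type, with mutant rises of 1.53 and 1.65. Among the spindle assembly genes, Tpx2, whose protein activates Aurora A, rose by 2.00 and 2.51. The microtubule-binding genes Nusap1 and Ckap2 rose by 2.15 and 2.39 in wild type, with mutant rises of 2.88 and 2.47. Hmmr, Aspm and Dlgap5, of the spindle and its poles, rose by 1.96, 1.65 and 1.43 in wild type, with mutant rises of 2.12, 1.93 and 1.82.

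The 4 cytokinesis genes had the highest median rise of the roles with several members, at 2.53 in wild type and 2.78 in mutants. Ect2, the exchange factor that switches on RhoA at the division plane, lay at 6.59, 5.21 and 6.20 in wild-type virgins and at 8.83, 8.42 and 8.97 at dp12. Mutants had 6.48, 4.89 and 4.75 and then 8.63, 9.09 and 9.45. It rose by 2.74 (SE 0.64, adjusted p = 0.0204) and by 3.69 (SE 0.64, adjusted p = 0.00156) by limma. Anln (anillin), a scaffold of the ring, lay at 6.09, 4.89 and 5.77 and at 8.37, 7.41 and 8.69 in wild type, and at 6.32, 5.30 and 4.70 and at 7.82, 8.05 and 8.41 in mutants, rising by 2.57 and 2.65. Prc1, which bundles microtubules between the separating chromosomes, lay at 6.92, 5.50 and 5.84 and at 8.69, 8.18 and 8.84 in wild type. The mutant arrays read 6.43, 5.27 and 5.12 and then 8.19, 8.47 and 8.90, and the rises were 2.49 and 2.92. Racgap1, a partner of KIF23 that binds ECT2, rose by 2.03 and 2.49.

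Of 7 measured genes of chromosome structure and cohesion, 6 rose in each genotype. Mki67, whose protein coats mitotic chromosomes and is widely stained as Ki-67, lay at 7.35, 5.72 and 6.52 in wild-type virgins and at 9.64, 9.34 and 9.61 at dp12. In mutants the levels were 7.02, 6.21 and 5.42 and then 9.21, 9.59 and 9.94. It rose by 3.00 (SE 0.54, adjusted p = 0.00924) and 3.37 (SE 0.54, adjusted p = 0.000831) by limma. Top2a, the topoisomerase that untangles sister chromatids, lay at 6.34, 5.41 and 5.67 and then at 8.43, 7.82 and 8.41 in wild type, and at 6.44, 5.18 and 4.97 and then at 7.83, 8.26 and 8.69 in mutants. Its rises were 2.42 and 2.73.

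The condensin genes Ncaph and Smc2 rose by 1.91 and 1.62 in wild type, with mutant rises of 2.53 and 1.85. Smc4, the partner of SMC2, lay at 7.18, 7.26 and 6.83 and at 8.54, 8.14 and 8.73 in wild type, a difference of 1.38 (adjusted p = 0.0523) by limma. In mutants it lay at 7.83, 7.58 and 6.69 and at 8.35, 8.59 and 8.72, a difference of 1.19 (adjusted p = 0.131) by limma. Neither pair of groups overlapped. Cdca2 (Repo-Man), a phosphatase partner, rose by 1.36 and 1.69, Cdca5 (sororin), which protects cohesion, by 1.41 and 1.82, and Cdca3, a ubiquitin ligase adaptor, by 1.28 and 1.43.

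**Figure D2:**
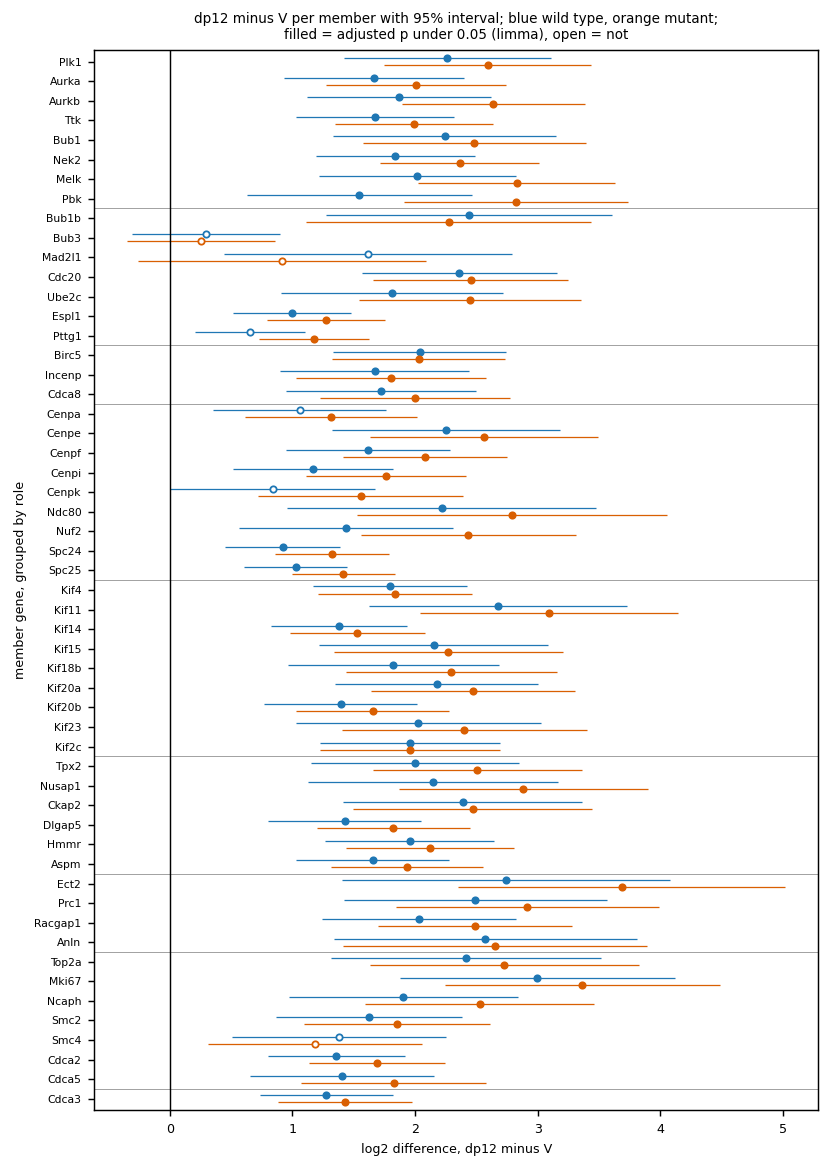
Points are the log2 difference dp12 minus V of each division gene with its 95% interval, blue in wild type and orange in mutants, filled where the adjusted p is under 0.05 by limma. All 54 points lie above 0 in both genotypes, with 48 filled in wild type and 51 in mutants, and Bub3 lies nearest to 0.

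Marker lists of other cells were read on the same arrays. From V to dp12 the milk and secretion list rose in 7 of 13 genes in wild type and 6 of 13 in mutants, with medians of 1.59 and 1.75. The basal and myoepithelium list rose in 5 of 9 and 2 of 9, with medians of 0.94 and 0.68. The 14 luminal epithelium genes had a median difference of 0.60 in wild type, with 1 rising and none falling, and of -0.13 in mutants, with Elf5 rising and Krt7 falling. The 14 T and B lymphocyte genes had medians of -0.70 and -0.67 with no call, and their summed level, as the median of the list on an array, was 7.45 on wild-type virgin replicate 2 and 7.49 on mutant virgin replicate 2 against 4.81 to 5.70 on the dp12 arrays. The 8 skeletal muscle genes stood at 8.02 on wild-type virgin replicate 2 and at 5.53 to 5.84 at dp12. The part of these cells in the members' rise was not tested. The members' median in wild type without virgin replicate 2 was 1.71.

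Other genes of the same machinery, were read from 6 lists that leave the members out. Of 27 tested genes of the centromere and outer kinetochore 18 rose in wild type and 16 in mutants, with list medians of 1.04 and 1.14. Cenpn, which reads the centromeric nucleosome, rose by 2.28 and 2.45, and Knl1, the docking platform of the checkpoint, by 2.24 and 2.54. Ska3, which helps kinetochores follow shrinking microtubules, rose by 1.82 and 2.07, and Zwilch, of the complex that recruits dynein, by 1.71 and 2.32. Of 42 genes of spindle assembly and motors 16 and 17 rose, led by Depdc1a by 2.18 and 2.84, Spag5 by 2.02 and 2.28 and the chromosome motor gene Kif22 by 2.03 and 2.19.

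The other lists are read against the same shares of 5.91% and 3.02% of all genes that rose. Of 17 APC/C genes 2 rose in wild type and 3 in mutants, with list medians of 0.82 and 0.28. Those that rose were the second activator Fzr1 (CDH1), by 0.91 and 1.02, the inhibitor Fbxo5 (EMI1), by 0.98 and 0.95, and in mutants the subunit gene Anapc13 by 0.97. Of 16 condensin and cohesin genes 2 and 3 rose, namely Ncapd2 by 1.96 and 1.94, Ncapg2 by 1.71 and 1.73, and in mutants the cohesin acetyltransferase gene Esco2 by 2.50. Of 12 further cytokinesis genes 4 rose in each genotype, Shcbp1 by 2.27 and 2.92, Iqgap3 by 2.05 and 2.63, the abscission gene Cep55 by 1.85 and 2.14, and the citron kinase gene Cit by 1.06 and 1.09. Of 17 mitotic entry genes 7 rose in wild type and 5 in mutants. Cdc25c, the phosphatase that activates CDK1, rose by 1.91 and 2.41, Mastl, which restrains the opposing phosphatase, by 1.86 and 2.13, and Foxm1, a transcription factor for such genes, by 1.43 and 1.56. No difference between these lists and the members was tested.

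**Figure D3:**
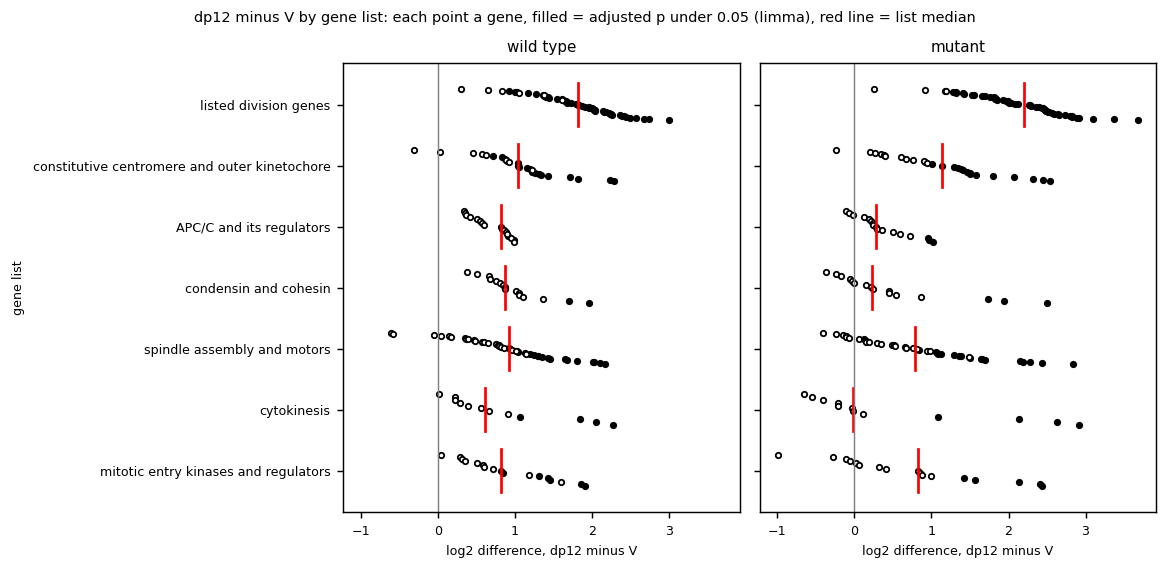
Each point is a gene of the members or of 1 of 6 related lists, placed by its log2 difference dp12 minus V in wild type (left) and mutants (right), filled where the adjusted p is under 0.05 by limma, with a red line at the list median. The members' line stands at 1.82 and 2.20, and the APC/C list holds 2 filled points in wild type and 3 in mutants.

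Genes of late cell cycle phases are known to carry a cell cycle homology region, with the letters TTTGAA, bound by the MuvB complexes, and CCAAT boxes bound by NF-Y. The letters TTTGAA and CCAAT were looked for on both strands in windows of 250 bases before to 50 bases after the start of each gene, from RefSeq on build GRCm38.p6, and a base could belong to several matches. Windows were used for 46 of the 55 listed members, 1 per gene, and not for Incenp, Pbk, Kif20a, Tpx2, Aurkb, Cdca2, Dlgap5, Smc4 and Spc24. Where a gene had several annotated starts the most upstream was taken, and letters at its other starts were not looked for. TTTGAA stood in 34 of 46 windows (73.9%), against 13.0% of 11867 windows of genes tested on the arrays and 4906 of all 27025 windows. Within 60 bases of the start it stood in 30 of 46 (65.2%) and in 3.58% of the tested genes. CCAAT stood in 33 of 46 (71.7%), against 10275 of all windows, and both together in 28 (60.9%), against 7.16% of all. Of 40 members with a window that rose in wild type 31 held TTTGAA, and of the 5 that did not pass there 2 did. The related letters TTCGAA stood in 3 of 46 windows and in 1.57% of all. A match is a description of the letters and no sign of binding.

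Stretches from position -120 to -11 relative to the start are shown for 5 members that rose in both genotypes and for Bub3 and Mad2l1, which passed in neither, so that the letters can be set beside the levels. No rule set which of the rising members are shown, and all 5 hold TTTGAA inside the stretch. Other members hold it after the start, outside the stretch, such as Plk1 at 31 and Ndc80 at 30. Capitals mark TTTGAA and CCAAT or their reverse complements TTCAAA and ATTGG, and each stretch reads 5′ to 3′ on the strand of its gene. They are chr4:118437354-118437463 on the minus strand for Cdc20, chr2:164769809-164769918 on the plus strand for Ube2c, chr19:37376262-37376371 on the plus strand for Kif11, chr19:6084977-6085086 on the plus strand for Cdca5, chr11:99024200-99024309 on the minus strand for Top2a, chr7:131560250-131560359 on the plus strand for Bub3 and chr6:66535101-66535210 on the plus strand for Mad2l1.
Cdc20: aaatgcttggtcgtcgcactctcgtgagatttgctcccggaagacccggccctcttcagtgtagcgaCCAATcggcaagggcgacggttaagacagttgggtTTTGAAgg
Ube2c: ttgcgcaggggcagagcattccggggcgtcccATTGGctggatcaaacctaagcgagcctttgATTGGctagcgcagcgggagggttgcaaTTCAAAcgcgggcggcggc
Kif11: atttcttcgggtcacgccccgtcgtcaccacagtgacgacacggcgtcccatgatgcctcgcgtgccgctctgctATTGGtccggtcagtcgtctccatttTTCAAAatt
Cdca5: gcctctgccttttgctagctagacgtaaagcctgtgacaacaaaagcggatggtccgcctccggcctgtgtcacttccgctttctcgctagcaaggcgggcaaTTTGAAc
Top2a: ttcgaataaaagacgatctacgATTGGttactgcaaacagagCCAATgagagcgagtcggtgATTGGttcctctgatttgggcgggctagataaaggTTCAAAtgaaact
Bub3: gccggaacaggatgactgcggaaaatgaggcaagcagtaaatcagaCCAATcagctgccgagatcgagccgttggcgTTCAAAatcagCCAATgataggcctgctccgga
Mad2l1: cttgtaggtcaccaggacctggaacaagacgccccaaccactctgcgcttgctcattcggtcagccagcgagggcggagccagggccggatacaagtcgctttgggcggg
Counted from the start, the first base of the TTTGAA match in these stretches, on either strand, lay at -18 in Cdc20, -29 in Ube2c, -19 in Kif11, -17 in Cdca5 and -23 in Top2a. Bub3 holds TTCAAA at -43 and CCAAT at -74 and -32 although its V and dp12 levels overlapped, and the Mad2l1 window holds none of these letters. Melk, Pttg1, Birc5, Nuf2, Nusap1 and Ncaph also lack all of them in the window, and 5 of these 6 rose in both genotypes, while Pttg1 passed in mutants. Top2a carries TTCGAA at -140, outside the stretch shown, and at -120, left in lower case.

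After dp12 the levels were lower, in comparisons that use the same dp12 arrays as the rise. In wild type all 54 members lay lower at dp18 than at dp12, with a median of -0.97 against -0.21 for all genes, and 40 had arrays that did not overlap, where this held for 18.9% of all genes. None passed (0% of all genes), although 41 had an unadjusted p under 0.05 by limma, as did 1476 of all 15234 genes. The smallest p values belonged to Birc5 at -1.33, Cdc20 at -1.42 and Dlgap5 at -1.03, each with an adjusted p of 0.484 by limma. In mutants all 54 were lower too, with a median of -0.88 against -0.17. There 27 had an unadjusted p under 0.05 (limma), as did 2082 of all 15234 genes. The arrays of 36 did not overlap, where this held for 20.6% of all genes. Nek2 at -1.29, Spc24 at -0.86 and Melk at -1.43 led there, with adjusted p values of 0.216, 0.239 and 0.244 by limma, and none passed (0% of all genes). With array weights in the fit, 41 members passed as lower in wild type in this step, where 18.1% of all genes passed. The mutant median was -0.57 without mutant dp18 replicate 1. With housekeeping centring the medians were -0.58 in wild type and -0.57 in mutants.

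On the same arrays the luminal epithelium list was lower at dp18 than at dp12 in all 14 genes of both genotypes, with medians of -0.55 in wild type and -1.21 in mutants. Its median level was 8.76, 9.56 and 9.70 on the wild-type dp18 arrays and 8.60, 7.54 and 9.39 on the mutant ones. The 7.54 was on the array labelled mutant dp18 replicate 2, whose Csn1s2b level stands apart. Fibroblast genes were lower in all 8 in wild type, with a median of -0.99, and in 5 of 8 in mutants, at -0.11. Housekeeping genes were lower in 19 of 20 and 20 of 20, with medians of -0.33 and -0.32. None of these lists held a call, and their part in the members' values was not tested.

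At dp18 the levels spread widely. Kif11 lay at 5.97, 6.85 and 7.49 in wild type and at 6.48, 7.62 and 7.31 in mutants, and the lowest value of each came from the array of low correlation. The same 2 arrays were lowest for Mki67, at 7.05 against 8.47 and 9.05 in wild type and at 8.03 against 9.13 and 8.80 in mutants. Plk1 lay at 6.50, 7.94 and 7.67 and at 7.05, 8.42 and 7.70, and Aurkb at 6.27, 7.48 and 7.51 and at 6.65, 7.59 and 7.17. Cdc20 lay at 5.95, 6.75 and 6.99 and at 6.38, 7.11 and 6.91, and Ndc80 at 5.49, 6.78 and 7.84 and at 6.34, 7.85 and 7.45. Ect2 lay at 6.34, 7.58 and 8.19 and at 6.69, 7.99 and 7.83, and Top2a at 6.31, 7.54 and 8.06 and at 6.85, 8.16 and 7.53. In these genes replicate 1 of each genotype was the lowest array. Bub3 lay at 7.90, 8.81 and 8.90 and at 8.30, 9.42 and 8.97, Ube2c at 6.81, 7.29 and 7.38 and at 7.20, 7.44 and 7.27, and Espl1 at 6.03, 6.21 and 6.22 and at 5.95, 6.51 and 6.18.

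From dp18 to Lac10 none of the 54 passed in wild type or in mutants (0% of all genes in each). In wild type 48 were lower, with a median of -0.37. An unadjusted p under 0.05 (limma) was found for 1 member, Cenpi at -0.72 (adjusted p = 0.572, limma), and for 1219 of all 15234 genes. Ttk at -0.56 and Cenpk at -0.72 followed, and 1 member had arrays that did not overlap, where this held for 2.67% of all genes. In mutants all 54 were lower, with a median of -0.84, and 34 had an unadjusted p under 0.05 (limma), as did 449 of all 15234 genes. The arrays of 11 members did not overlap, where this held for 1.46% of all genes. Aurkb at -1.19, Ckap2 at -1.54 and Kif23 at -1.52 led there (adjusted p = 0.987 each, limma). With array weights 44 members passed in wild type, where 25.6% of all genes did. The wild-type median was -0.65 without Lac10 replicate 1, -0.63 without dp18 replicate 1, -0.14 without dp18 replicate 3 and -0.10 without Lac10 replicate 2.

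Between dp12 and Lac10, which compares the peak with the end of the series, 52 of 54 members fell in mutants and none rose, where 8.61% of all genes fell. The median was -1.85 against -0.28 for all genes, and all 54 members had arrays that did not overlap, as 30.9% of all genes did. Ect2 fell by 2.97 (SE 0.64, adjusted p = 0.0153), Kif11 by 2.62, Mki67 by 2.57, Ckap2 by 2.50, Anln by 2.50 and Nusap1 by 2.44 by limma. Bub3 at -0.78 (adjusted p = 0.0782) and Cenpk at -1.06 (adjusted p = 0.0837) did not pass by limma. The count was 10 without mutant dp12 replicate 2, 1 without dp12 replicate 3, 4 without Lac10 replicate 2 and 0 in a fit on the 6 compared arrays alone. With housekeeping centring it was 28 with a median of -1.18. The share of all genes in these fits is not given here, so these counts stand without a background.

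Other genes moved with this step on the same arrays. The luminal epithelium list had a median of -1.78, with all 14 genes lower and 4 falling, among them Cldn3 at -2.25 and Krt19 at -2.03, and its median level on the mutant Lac10 arrays was 9.29, 6.53 and 7.79 against 9.71 to 9.75 at dp12. White adipocyte genes had a median of 1.34 with 4 of 11 rising, and their level was 5.98, 7.21 and 9.26 on the mutant Lac10 arrays against 6.12 to 6.66 at dp12. The share of all genes that rose in this step is not given here, so the 4 stand without a background. The 20 housekeeping genes were all lower, with a median of -0.56 and no call. The part of these lists in the fall of the division genes was not tested.

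In wild type all 54 members were lower at Lac10 than at dp12 as well, with a median of -1.30 against -0.05 for all genes. An unadjusted p under 0.05 by limma was found for 52 members and for 1911 of all 15234 genes. None passed, where 0.0591% of all genes passed, and 52 had arrays that did not overlap, where this held for 23.5%. The smallest p values were those of Melk at -1.81, Kif2c at -1.64 and Birc5 at -1.49, each with an adjusted p of 0.0666 by limma. When replicate 1 of the arrays labelled wild-type Lac10 was left out, on which the members lay higher than on its companions, 38 passed and the median was -1.57. The count was 1 without wild-type dp18 replicate 1, 6 without mutant Lac10 replicate 3, 35 after removal of the 3 arrays of lowest correlation, and 53 under array weights, where 43.0% of all genes passed. For the fits other than array weights the share of all genes is not given here, so their counts, the 38 included, stand without a background. Of the related lists, 16 of 27 kinetochore, 20 of 42 spindle and 8 of 17 mitotic entry genes fell in mutants in this step. So did 4 of 17 APC/C, 4 of 16 condensin and cohesin and 3 of 12 cytokinesis genes, where 8.61% of all genes fell. None of them fell in wild type, where 0.0591% of all genes passed. The genotype difference of this step was not tested.

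**Figure D4:**
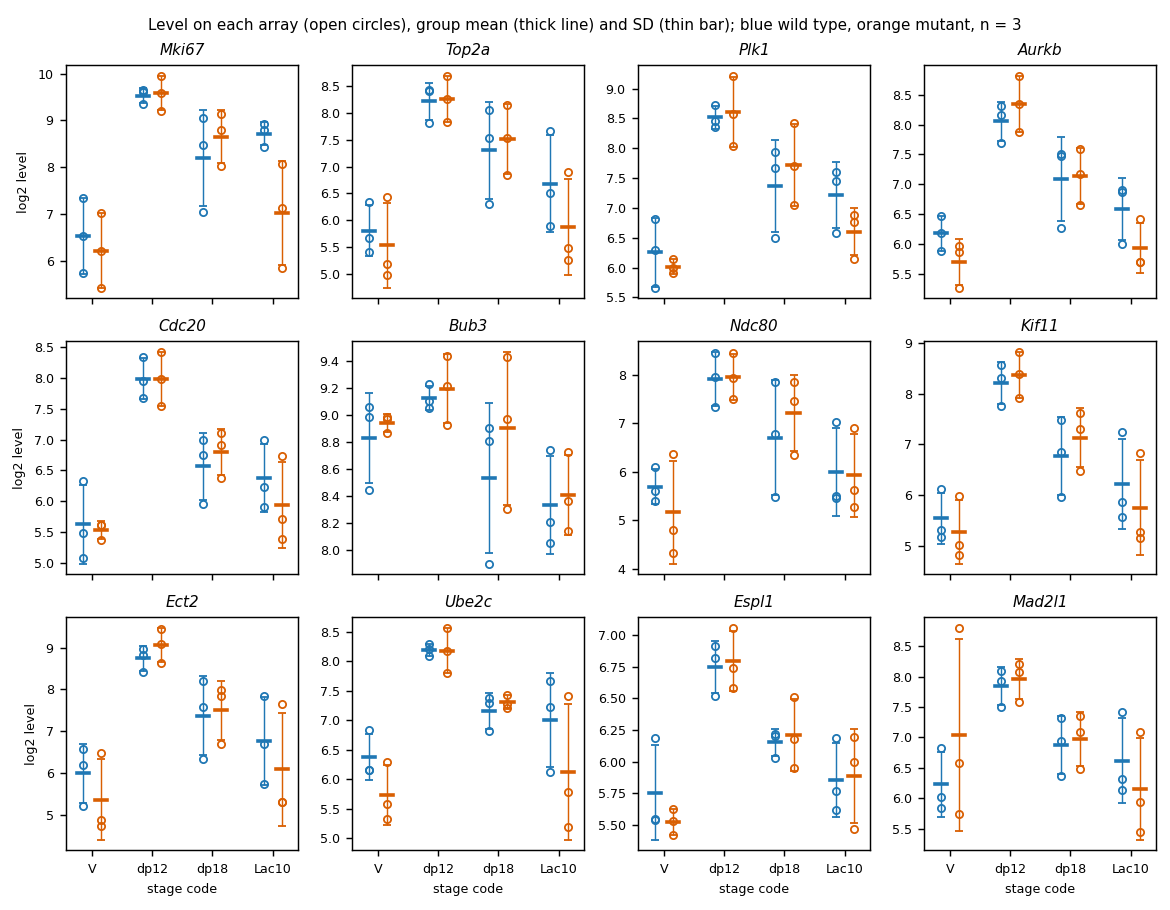
Open circles give the log2 level of 12 division genes on each array by stage code, blue in wild type and orange in mutants, with a thick line at the group mean and a thin bar for the SD of 3 arrays. Levels peak at dp12 in both genotypes, Bub3 spans the narrowest range of stage means, and Mki67 in wild type stays near 8.72 at Lac10.

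Set against virgins, Lac10 kept few differences. In wild type 2 of 54 members rose, Mki67 and Spc25, where 6.01% of all genes rose, so their share lay below the background. The members' median was 0.46 against 0.15 for all genes, and the arrays of 5 members did not overlap, where this held for 26.4% of all genes. That median was 0.16 without the first wild-type Lac10 replicate, whose Csn1s2b level stands apart, and 0.72 without the second. Mki67 lay at 8.79, 8.43 and 8.92 at wild-type Lac10, above all wild-type virgins, with a difference of 2.19 (SE 0.54, adjusted p = 0.0168) by limma. Spc25 lay at 6.03, 6.05 and 6.22 against 5.52, 5.24 and 5.33, a rise of 0.74 (SE 0.20, adjusted p = 0.0297) by limma. Plk1 at 0.96 (adjusted p = 0.152) came next by limma.

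Mki67 thus kept 72.9% of its wild-type rise on the log2 scale at Lac10 and Spc25 72.0%, where the median member kept 25.2%. In mutants Mki67 kept 23.8% and the median member 19.5%. A difference between the genotypes in these shares was not tested. Mki67 passed in wild type under both centrings, with 1.81 on housekeeping genes and 1.93 on array medians, but Spc25 did not, with 0.37 and 0.48. Mki67 had an adjusted p of 0.0835, 0.0633, 0.052 and 0.0785 by limma without wild-type virgin replicates 2 and 3 and Lac10 replicates 2 and 3, and of 0.0435 without the array labelled Lac10 replicate 1. Spc25 passed in none of these 5 fits, and 6 members passed without the 3 arrays of lowest correlation, where 27.8% of all genes did. In mutants none of 54 passed, where 2.88% of all genes passed. An unadjusted p under 0.05 (limma) was found for 3 members, Cenpf at 0.74, Aspm at 0.65 and Ttk at 0.65, and for 3730 of all 15234 genes. Mutant arrays did not overlap for 4 higher members and 1 lower member, where this held for 4.04% and 18.3% of all genes.

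At Lac10 the other members varied widely among the arrays of 1 group. Top2a lay at 7.66, 5.89 and 6.51 in wild type and at 6.90, 5.26 and 5.47 in mutants. Kif11 lay at 7.24, 5.57 and 5.87 and at 6.83, 5.15 and 5.26. Ect2 lay at 7.84, 5.75 and 6.70 and at 7.66, 5.31 and 5.30, so replicate 1 of each genotype was highest. Cdc20 lay at 6.99, 5.91 and 6.23 and at 6.73, 5.70 and 5.39, and Ndc80 at 7.03, 5.49 and 5.46 and at 6.90, 5.26 and 5.63. Plk1 lay at 7.60, 6.58 and 7.45 and at 6.89, 6.15 and 6.77, and Ube2c at 7.66, 6.12 and 7.23 and at 7.42, 5.19 and 5.78. Aurkb lay at 6.88, 6.00 and 6.90 and at 6.43, 5.70 and 5.71. Bub3 lay at 8.74, 8.21 and 8.05 and at 8.36, 8.14 and 8.73, and Espl1 at 6.18, 5.61 and 5.77 and at 6.00, 6.19 and 5.47, with overlap of the genotypes in both.

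**Figure D5:**
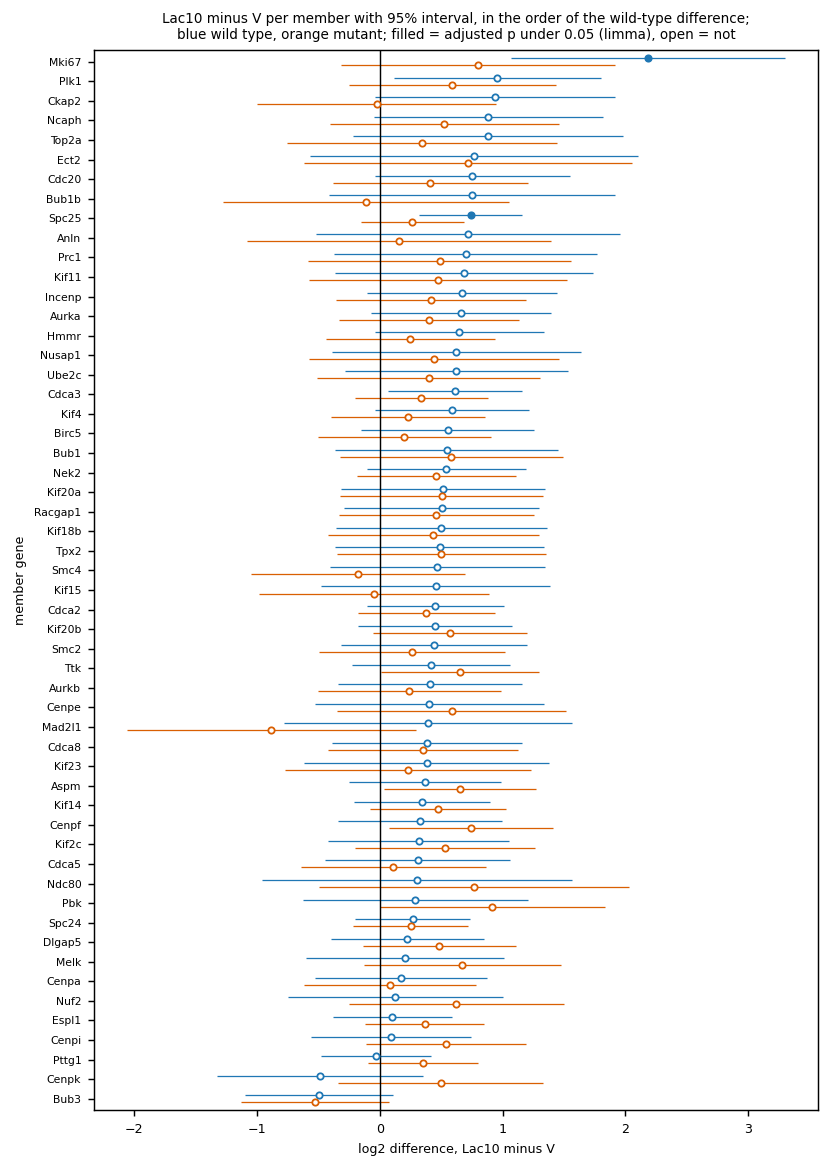
Points are the log2 difference Lac10 minus V of each division gene with its 95% interval, blue in wild type and orange in mutants, in the order of the wild-type difference and filled where the adjusted p is under 0.05 by limma. Mki67 at 2.19 and Spc25 at 0.74 in wild type are the filled points, and most intervals include 0.

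The genotype comparison asks whether the mutation goes with another level of the division genes at a stage. None of 54 members passed at V, dp12, dp18 or Lac10, where 0.0263%, 0%, 0% and 0.236% of all genes passed by limma. None had an unadjusted p under 0.05 (limma) at V, dp12 or dp18, where 2403, 184 and 100 of all 15234 genes had one. The median difference, mutant minus wild type, was -0.24 at V against 0.20 for all genes, 0.09 at dp12, 0.20 at dp18 and -0.36 at Lac10 against -0.19 for all genes. The sign at Lac10 was not stable, since the median was 0.11 with housekeeping centring, 0.46 with array weights and -0.03 when replicate 1 of the arrays labelled wild-type Lac10 was left out. The median at dp12 was -0.07 without mutant replicate 3 there, and that at dp18 was -0.08 without wild-type replicate 1. At V the median ran from -0.43 without mutant replicate 1 to -0.06 without wild-type replicate 1. With array weights 3 members passed at V, where 36.6% of all genes did, and 1 at Lac10, where 21.7% did, so these shares lay below the background.

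At V 2 members lay lower on every mutant array, where this held for 8.64% of all genes. The smallest p values there were those of Pbk at -0.87, Cenpf at -0.54, Nuf2 at -0.68 and Pttg1 at -0.33, with adjusted p values of 0.328 to 0.43 by limma. At dp12, where levels peaked, Spc24 differed by 0.32, Spc25 by 0.22, Pbk by 0.41 and Pttg1 by 0.19. The 95% intervals at dp12 ran from -1.07 to 1.17 for Mki67, from -0.75 to 0.93 for Plk1 and from -0.90 to 1.20 for Kif11, so differences of that size could not be detected here. At dp18 Dlgap5 differed by 0.49, Aspm by 0.45, Kif23 by 0.65 and Bub3 by 0.36.

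At Lac10 Spc25 and Mki67 had unadjusted p values under 0.05 (limma), as did 2676 of all 15234 genes. Mki67 lay at 8.07, 5.85 and 7.13 in mutants, all under the wild-type arrays, a difference of -1.70 (SE 0.54, adjusted p = 0.121, limma). The 5.85 was on mutant Lac10 replicate 2, the array of lowest correlation in the series (0.799). Spc25 lay at 5.48, 5.32 and 5.58 in mutants, a difference of -0.64 (SE 0.20, adjusted p = 0.121, limma) with no overlap. Groups did not overlap with a lower mutant level for 3 members, where this held for 12.4% of all genes. Ube2c at -0.88 and Aurkb at -0.65 followed, with adjusted p values of 0.299 and 0.344 by limma. Without mutant Lac10 replicate 1, 2 members passed, and the share of all genes in that fit is not given here. At this stage the luminal epithelium list stood at a median of -1.02 and the milk and secretion list at -0.93, with no call in either. Of 20 housekeeping genes 19 were lower in mutants, with a median of -0.28. The part of these lists in the Mki67 values was not tested.

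Averaged over the 4 stages none of 54 passed (0% of all genes), with Ube2c at -0.35, Spc25 at -0.15, Mki67 at -0.38 and Aurkb at -0.20 first by p, each with an adjusted p of 1 by limma. The moderated F test for unequal genotype differences over the stages called none of the members, where it called 0.00656% of all genes, and Spc25, the 1 member with an unadjusted p under 0.05, had an adjusted p of 0.392 (limma). The genotype difference of each step was tested as well. For V to dp12 the step was larger in mutants for 49 of 54 members, with a median difference of 0.33. None passed or had an unadjusted p under 0.05 (limma), where 0.00656% of all genes passed and 907 of all 15234 had such a p. With 1 array left out at a time that median ran from 0.16 without wild-type virgin replicate 1 to 0.53 without mutant virgin replicate 1, and with array weights 4 members and 28.2% of all genes passed. Pbk at 1.28 (95% interval -0.02 to 2.58), Pttg1 at 0.52, Nuf2 at 1.00 and Aurkb at 0.77 led, each with an adjusted p of 0.695 by limma. For dp12 to dp18 and dp18 to Lac10 none passed either (0% of all genes). There 0 and 2 members had an unadjusted p under 0.05 by limma, where 63 and 954 of all 15234 genes had one. First by p were Aspm at 0.55, Dlgap5 at 0.52, Kif2c at 0.52 and Kif23 at 0.70 in the one, and Mki67 at -2.16 (adjusted p = 0.742, limma), Spc25 at -0.61, Kif23 at -1.23 and Ckap2 at -1.18 in the other.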

How the data were processed

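The 24 arrays were measured on total RNA, and the values used are the log2 expression values that the authors deposited after RMA, per the submitters' processing notes. Background, normalization settings and scan batches are not given in the sources used here. Of 41345 probe sets, 23521 carry 1 gene symbol, 1814 carry several and 16010 carry none, and probe sets with 1 symbol alone were used. A gene entered the tests where its level exceeded the array median on at least 3 arrays, which left 15234 of 22180 genes. limma 3.58.1 in R 4.3.3 fitted 1 mean per group to all 24 arrays (16 residual degrees of freedom), with Benjamini-Hochberg adjustment over all genes and a threshold of 0.05. The fit was also run on simulated data, with noise independent between genes and of equal spread on all arrays. That run cannot speak to arrays of unequal quality or to members that move together, and its outcome is not given here. Titles number the wild-type replicates, while mutant numbers only name arrays in accession order.

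The members and all lists were chosen with earlier results of these data known. Array values were printed for a fixed set of members and for those with the largest and smallest rises, and other named genes were taken by the size of their difference or by their p. Condensin gene Ncapg was left out as described, and promoter windows were read from RefSeq on GRCm38.p6. Alternatives were another probe set rule, other filters, centring on 20 housekeeping genes or on the array median, a variance trend, array weights, fits on the compared arrays alone, a replicate block, and leaving out arrays. The number of arrays limits the precision.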

Additional observations from a re-analysis of the deposited data

How the results depend on the processing

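Counts of members that passed were most open to single arrays and to array weights, and no direction of a passing member was reversed under the alternatives run. Array weights raised the calls over all genes too. They gave 3 members for genotype at V (36.6% of all genes), 1 at Lac10 (21.7%), 4 in the F test (39.3%) and 4 for the genotype difference of the step V to dp12 (28.2%). In wild type the same setting gave 41 for dp12 to dp18 (18.1%), 44 for dp18 to Lac10 (25.6%), 53 for dp12 to Lac10 (43.0%) and 10 for V to Lac10 (54.0%), and in mutants 10 for V to Lac10 (10.6%). Shares of all genes are given in this section for array weights alone, so the other counts in it stand without a background. Housekeeping centring gave 18 for V to dp12 in wild type and 28 for dp12 to Lac10 in mutants. For dp12 to Lac10 in wild type the variance trend gave 3, the fit without the 3 arrays of lowest correlation 35, and the fit without the arrays labelled wild-type Lac10 replicate 1 and mutant dp18 replicate 2 gave 38, while V to Lac10 in wild type gave 6 without the 3 arrays of lowest correlation. A fit on the compared arrays alone gave 0 for dp12 to Lac10 in mutants. With 1 array left out at a time the counts ran from 0 to 2 for genotype at Lac10, from 0 to 51 for V to dp12, from 0 to 38 for dp12 to Lac10 and from 0 to 2 for V to Lac10 in wild type, and from 45 to 52, from 1 to 53 and from 0 to 1 for the same steps in mutants. Where an array left out leaves a group of 2, fewer samples enter that group's mean; the cause of the other shifts was not tested.

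With the wild-type number as a replicate block 47 members passed for V to dp12 in wild type and 51 in mutants, 49 for dp12 to Lac10 in mutants and 2 for V to Lac10 in wild type. Of 18 pairs of wild-type arrays with the same number 4 had deviations correlated over 0.1, in a range of -0.39 to 0.31. Pairs of different numbers were not compared, so these values do not decide whether the numbers pair the arrays. Of the recomputed counts 630 stayed within 1.5 times the count in the report and 33 did not. Most comparisons had a count of 0 in the report, so this tally says little about the steps with calls. In wild type the count for V to dp12 ran from 0 to 51 with 1 array left out.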
